A study of Mus musculus with 6 samples.

Results

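The GIMAP genes encode a family of GTPases of lymphocytes, and 8 of them, Gimap1, Gimap3, Gimap4, Gimap5, Gimap6, Gimap7, Gimap8 and Gimap9, were followed in double-positive thymocytes with and without the microRNA pair miR-181a-1/b-1. The members were taken by gene name from the deposited table of 37867 gene models, each name matched 1 model, and 7 of the 8 models carried a test. The knockout group was 3 sorted CD4+CD8+ thymocyte samples of the genotype labelled mir181a1/b1 Knockout, and the wild type group was 3 such samples, both of strain C57bl6 and sorted to more than 95% purity. The sources used here do not give the ages of the mice or whether the samples of a group came from separate animals. RNA was extracted with Trizol or an RNeasy kit, and the labels do not say which samples had which. The table holds 1 pooled FPKM value (fragments scaled to transcript length and library size) per genotype. It also holds the authors' log2 ratio, test statistic, p and q. The values of the single samples and their depth were not used here, so no spread over samples can be given. The standard error (SE) of a log2 ratio below is the one implied by the deposited test statistic, and all ratios are knockout over wild type. The sources do not say what spread the deposited statistic measures, so it may be technical.

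GIMAP proteins bind and hydrolyse GTP and sit on membranes inside the cell, among them those of lysosomes, the endoplasmic reticulum and the Golgi. In mice and rats, loss of Gimap5 depletes peripheral T cells, and in mice Gimap1 is needed for mature lymphocytes to persist. Binding to proteins of the Bcl2 family has been described for mouse Gimap3, Gimap4 and Gimap5, and Gimap6 binds Gabarapl2, a protein of autophagosomes. In the mouse thymus several members are low at the double-positive stage and higher in the single-positive cells that follow it.

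The genes removed in the knockout, Mir181a-1 and Mir181b-1, both lie on chromosome 1. Whether other genes encode the same mature strands or seed was not examined. The mature strands of Mir181a-1 and Mir181b-1 have the seed (bases 2 to 8 of the mature strand) in common. It is shown in capitals in the RefSeq sequences of build GRCm38.p6.
mmu-miR-181a-5p: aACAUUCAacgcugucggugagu
mmu-miR-181b-5p: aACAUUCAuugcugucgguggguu
The seed matches were sought on the sense strand of the 3′ UTR in 1 GENCODE reference transcript per member. The 7-letter match TGAATGT, its 8-letter form TGAATGTA and the shifted 7-letter form GAATGTA were absent from all 8. These forms overlap, and each holds the 6 letters GAATGT within it. Among all genes, TGAATGT was present in 15.1% of 20502 coding 3′ UTRs, TGAATGTA in 4.69%, GAATGTA in 10.2% and GAATGT in 30.2%. The member UTRs ran from 273 bases in Gimap7 to 1019 bases in Gimap8, against a median of 810 bases over all UTRs. GAATGT stood once among them, at bases 188 to 193 of the 343-base UTR of Gimap9. Of the UTRs of like length, 11.9% held it. A longer UTR of Gimap6, of 2822 bases, belongs to another annotated coding isoform. The coding sequence of that isoform has only 291 bases, against 915 in the reference transcript. Its UTR held GAATGT 4 times and GAATGTA once, at bases 1417 to 1423. Of UTRs of that length, 62.3% held GAATGT and 23.2% held GAATGTA. Both sites are shown with the matching letters in capitals.
Gimap9: cgtggtcataacaggaaGAATGTggg
Gimap6 long isoform: tccaggatgcaggctgaGAATGTAag
The table does not say which Gimap6 isoform was expressed. A match is a description of letters and does not show binding.

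All 8 genes were detected in both genotypes, with levels that spanned 146-fold in the knockout and 124-fold in wild type. Gimap6, the partner of Gabarapl2, was the highest at 310 FPKM in knockout cells and 241 FPKM in wild type cells, a level above that of 99.3% of the 13834 tested models. Gimap9 followed at 126 FPKM in knockout cells and 110 FPKM in wild type cells. These genes made up 83.3% of the summed GIMAP FPKM in the knockout and 78.5% in wild type. Gimap1 stood at 36.9 FPKM in knockout cells and 49.1 FPKM in wild type cells. Gimap8, which carries several GTPase domains in 1 protein, stood at 25.4 FPKM in knockout cells and 23.7 FPKM in wild type cells. The remaining 4 genes lay lower, above 26.0% to 55.0% of the tested models in level. Gimap5 stood at 8.96 FPKM in knockout cells and 10.7 FPKM in wild type cells. Gimap7 stood at 7.94 FPKM in knockout cells and 5.73 FPKM in wild type cells. Gimap4 stood at 6.04 FPKM in knockout cells and 5.32 FPKM in wild type cells. Gimap3, the closest relative of Gimap5, was the lowest at 2.13 FPKM in knockout cells and 1.94 FPKM in wild type cells.

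The order of the 8 levels was the same in both genotypes. The narrowest steps in that order were those from Gimap5 to Gimap7 in the knockout, of 1.13-fold, and from Gimap7 to Gimap4 in wild type, of 1.08-fold. Without a spread over samples it cannot be said which neighbours in the order differ. The widest steps were those from Gimap9 to Gimap1 in the knockout, of 3.40-fold, and from Gimap4 to Gimap3 in wild type, of 2.74-fold. Summed over the family, GIMAP transcripts held 523 FPKM in knockout cells and 447 FPKM in wild type cells. That was 0.176% of all FPKM in the knockout and 0.124% in wild type. The FPKM of all models summed to 297352 in the knockout and 360688 in wild type, so these shares differ also through their totals.

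**Figure D1:**
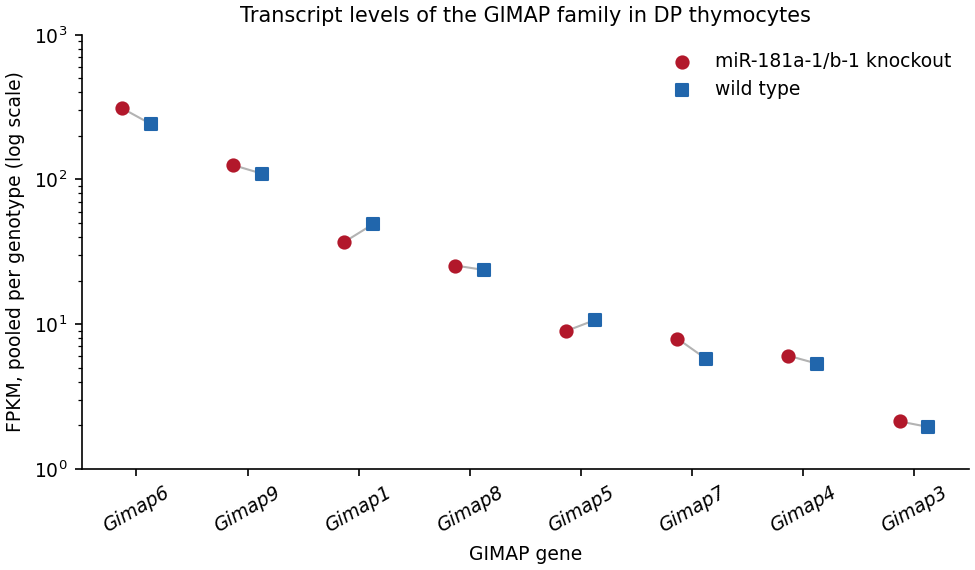
Pooled FPKM of each GIMAP gene on a log axis, with the knockout as circles left of wild type as squares, joined by a grey line; no error is shown because the table holds 1 value per genotype. Gimap6 and Gimap9 lie above 100 FPKM in both genotypes, Gimap3 lies near 2 FPKM, and the order is the same in both.

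The comparison of the genotypes asked whether GIMAP transcripts differ in thymocytes that lack miR-181a-1/b-1. None of the 7 tested genes passed the q threshold of 0.05 in the authors' deposited table, where 17.1% of all tested models did (1.79% higher and 15.3% lower in the knockout). None had an unadjusted p under 0.05 there either, against 27.4% of all tested models. At a deposited q under 0.1 the count was again 0, against 21.6% of all, and at 0.01 it was 0 against 10.9%. With q adjusted over the 11464 models of at least 1 FPKM it was 0 against 19.8%. The 7 q values lay between 0.299 and 0.897. Every one of the 7 ratios had a 95% interval that included 0. The authors' test of Gimap8 is marked as failed, as for 66 models in all, and only its levels can be given.

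Gimap1 had the smallest p of the family and the lower level in the knockout. Its log2 ratio was -0.41 with an implied SE of 0.25 (p = 0.104, q = 0.299 in the authors' deposited table), and its 95% interval ran from -0.91 to 0.08. Gimap5, the other gene with a lower level in the knockout, had a log2 ratio of -0.25 with an implied SE of 0.35 and an interval from -0.94 to 0.43. These intervals reach to 1.87-fold and 1.91-fold lower levels in the knockout for Gimap1 and Gimap5. They rest on the implied SE, which may be technical, so they set no limit on the difference between the genotypes. Whether the difference of either gene is larger was not tested.

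The other 5 tested genes had the higher level in the knockout, without passing the test. Gimap7, whose human relative was reported to speed GTP hydrolysis by another GIMAP protein, had the highest ratio of the family, at log2 0.47 with an implied SE of 0.32 and an interval from -0.15 to 1.09. Gimap6 had a log2 ratio of 0.36 with an implied SE of 0.23 and an interval from -0.09 to 0.82. The ratio of Gimap7 lay above that of 85.0% of the tested models and the ratio of Gimap6 above 80.4%. Gimap9 had a log2 ratio of 0.20 with an interval from -0.25 to 0.65. Gimap4, which has been tied to cell death in T cells, had a log2 ratio of 0.18 with an interval from -0.59 to 0.95. Gimap3 had a log2 ratio of 0.13 with an interval from -0.56 to 0.82. The upper ends of the 5 intervals lay between 1.56-fold and 2.13-fold higher levels in the knockout. These intervals rest on the implied SE too and set no limit on the difference between the genotypes. For Gimap8 the ratio of the pooled levels was 1.07, with no error.

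The median log2 ratio of the 7 tested genes was 0.18, beside -0.17 over the 13780 tested models with a finite ratio. Of the members tested, 5 of 7 had the higher level in the knockout, as did 40.4% of all tested models. Relative to that shift, the 7 ratios lay between -0.24 for Gimap1 and 0.63 for Gimap7, and none passed the threshold, against 14.4% of all models on that scale. The smallest q was 0.112, for Gimap6. On that scale 2 members, Gimap6 and Gimap7, had an unadjusted p under 0.05, as did 26.7% of all models.

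**Figure D2:**
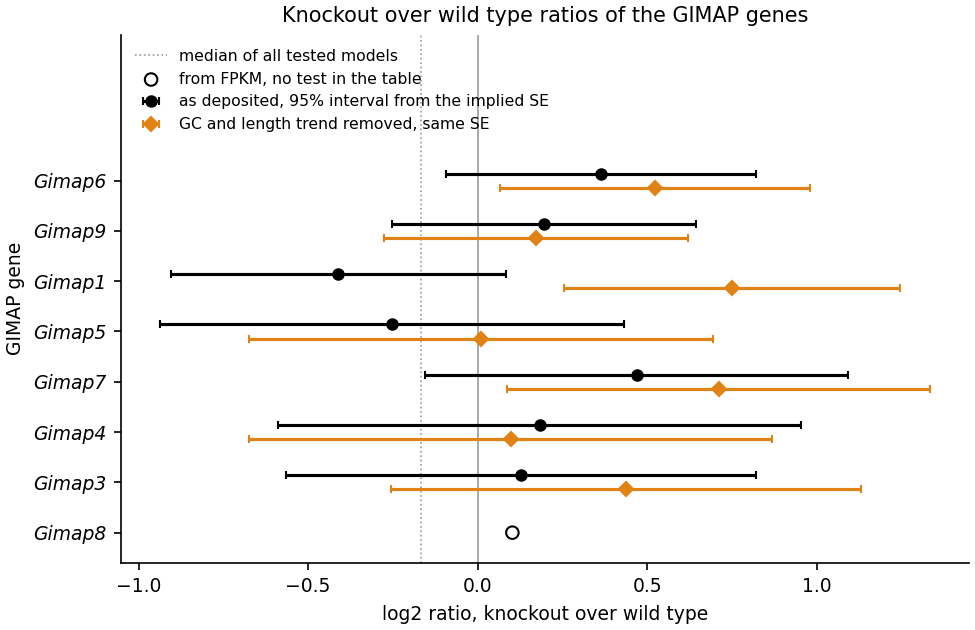
Log2 ratio of knockout over wild type for each GIMAP gene, as deposited (black circles) and with a GC and length trend taken out (orange diamonds), with 95% intervals from the implied SE; Gimap8, an open circle, has no test. All deposited intervals include 0, and Gimap1 moves from -0.41 to 0.75 between the scales.

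The ratios of this table followed the base composition of transcripts, and the GIMAP genes differ in it. GC content of the reference transcripts ran from 42.6% in Gimap9 to 57.9% in Gimap1. Gimap4 and Gimap8 were close to Gimap9 at 43.3% and 43.8%. Gimap6 and Gimap7 stood at 48.1% each, Gimap5 at 50.3% and Gimap3 at 51.0%. Each member was set beside the coding genes within 1 percentage point of its own GC content, as a description with no test.

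Gimap1 was the member whose setting differed most. The 706 genes of its GC content had a median log2 ratio of -1.05, with an interquartile range from -1.39 to -0.75, and 58.8% of them had a q under 0.05. Gimap1, at -0.41, lay above 91.5% of them. Gimap7 lay above 93.2% of the genes of its GC content, Gimap6 above 88.1% and Gimap3 above 88.0%. Gimap9, Gimap4 and Gimap5 lay near the middle of theirs, above 48.3%, 50.5% and 45.0%.

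After a spline of GC content and transcript length had been removed over 8990 coding genes, all 7 tested members had a positive value, as did 50.1% of all genes in that regression. The median of the 7 was 0.44. The q values of this scale rest on the same implied SE. Gimap1 was at 0.75 (q = 0.0961), Gimap7 at 0.71 (q = 0.337) and Gimap6 at 0.52 (q = 0.331). These 3 had an unadjusted p under 0.05, as did 10.7% of the genes in the regression. Gimap3 stood at 0.44, Gimap9 at 0.17, Gimap4 at 0.10 and Gimap5 at 0.01. No member had a q under 0.05 there, where 2% of the genes in the regression did. As deposited, 20.9% of these genes had one. With 1 pooled value per genotype, a technical source of the GC trend and an effect of the genotype cannot be told apart.

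**Figure D3:**
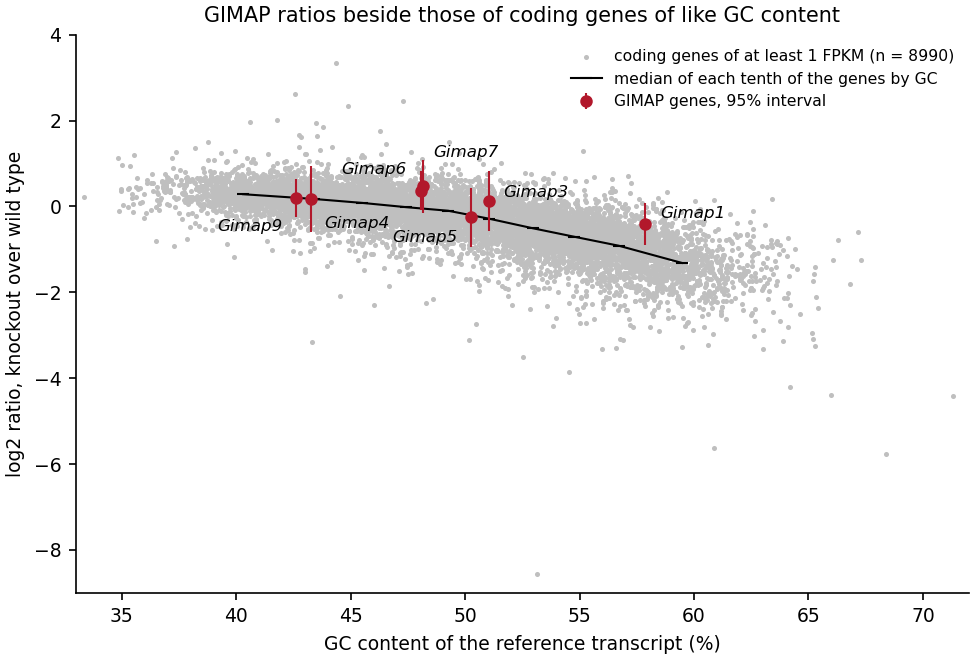
Log2 ratio of knockout over wild type against GC content of the reference transcript for 8990 coding genes (grey), with the median of each of 10 groups by GC (black line) and the 7 tested GIMAP genes with 95% intervals (red). Gimap9, Gimap4 and Gimap5 lie near the line, and Gimap6, Gimap7, Gimap3 and Gimap1 lie above it.

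The 8 genes lie side by side on chromosome 6 (mm9), from 48596468 to 48720850. Their order along the chromosome is Gimap8, Gimap9, Gimap4, Gimap6, Gimap7, Gimap1, Gimap5 and Gimap3, and in the GENCODE annotation Gimap6 and Gimap3 are on the minus strand and the others on the plus strand. The most abundant gene, Gimap6, spans 48651581 to 48658243, between the lowly expressed Gimap4 (48634576 to 48642061) and Gimap7 (48668619 to 48674635). Adjacent genes of the cluster differed more in level than any member did between the pooled genotypes. The members with the lower level in the knockout, Gimap1 (48689045 to 48693794) and Gimap5 (48696195 to 48704199), are adjacent, with 2400 bases between the models. Neither passed the test (q = 0.299 and q = 0.734 in the authors' deposited table). With the GC and length trend removed, neither was lower, at 0.75 for Gimap1 and 0.01 for Gimap5. Gimap9 spans 48626133 to 48628703 and Gimap3 spans 48714462 to 48720850.

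Within 300 kb of the cluster on either side, 10 other models were tested. Of these, 4 were lower in the knockout at a q under 0.05 and none was higher, with a median log2 ratio of -0.97 over the 10, where 15.3% of all tested models were lower and 1.79% higher at that threshold. The 2 flanking models with the higher level in the knockout did not pass the test. The model named AK129160,BC068148 stood at 13.4 FPKM in knockout cells and 8.92 FPKM in wild type cells (log2 0.58, implied SE 0.56), and AK158926 at 2.17 FPKM in knockout cells and 1.99 FPKM in wild type cells. Each has its listed span in common with a tested model of lower level in the knockout. For AK129160,BC068148 it is AK129160, at 3.16 FPKM in knockout cells and 3.75 FPKM in wild type cells. For AK158926 it is Krba1. The nearest on one side, 22208 bases away, were Zfp775 and Repin1, zinc finger genes that have 1 listed span in common. Zfp775 fell to 0.490 FPKM in the knockout, against 1.37 FPKM in wild type (log2 -1.48, implied SE 0.54, q = 0.0362 in the authors' deposited table). Repin1 stood at 0.818 FPKM in knockout cells and 1.65 FPKM in wild type cells (q = 0.218 in the authors' deposited table). The nearest on the other side, 62975 bases away, was Tmem176b, a membrane protein of immune cells, which fell to 2.58 FPKM in the knockout, against 6.45 FPKM in wild type (log2 -1.32, implied SE 0.39, q = 0.00764 in the authors' deposited table). Its neighbour Tmem176a stood at 1.57 FPKM in knockout cells and 3.00 FPKM in wild type cells (q = 0.0888 in the authors' deposited table). Krba1 fell to 6.90 FPKM in the knockout, against 20.2 FPKM in wild type, and Zfp467 to 0.215 FPKM in the knockout, against 1.06 FPKM in wild type. The difference between members and flanking genes was not tested. With the GC and length trend removed, Tmem176b was at -0.72 (q = 0.537) and Krba1 at -0.72 (q = 0.755), while Zfp775 and Zfp467 were not in that regression. No flanking model exceeded 20.2 FPKM in either genotype, a level that 4 members exceeded in both.

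**Figure D4:**
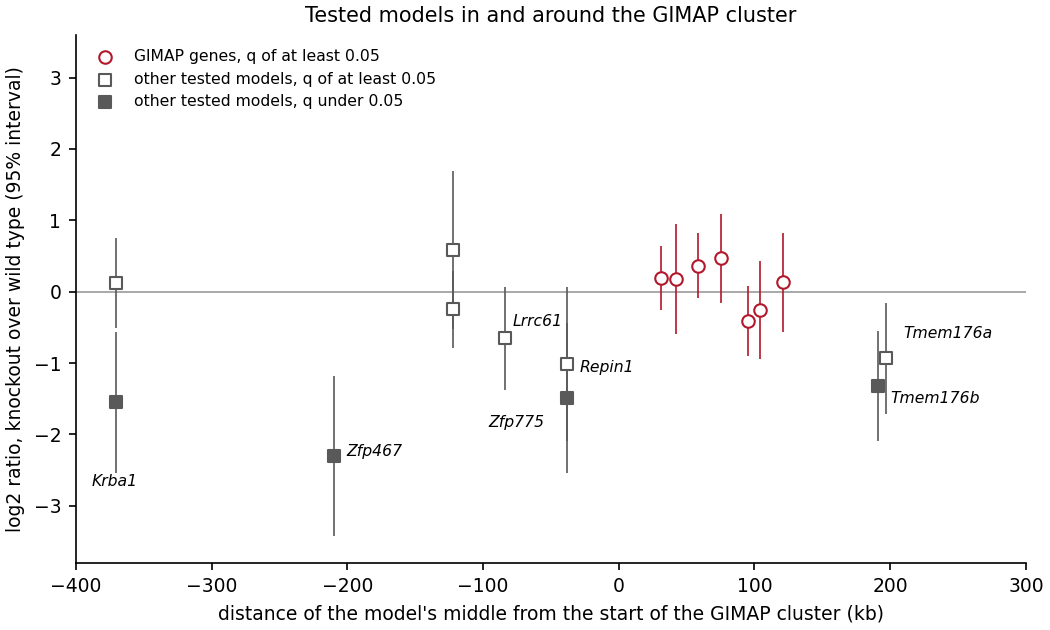
Log2 ratio of knockout over wild type with 95% interval for tested models in and around the GIMAP cluster, by distance in kb of the model's middle from the start of the cluster; circles are GIMAP genes, squares are other models, and filled symbols have a q under 0.05. The 7 GIMAP genes are all open and lie around 0, and the 4 filled squares lie below 0.

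Reads of some members could belong to another gene. Gimap3 and Gimap5 are near copies, with coding sequences that are 88.9% identical, whereas the other 20 pairs among the members without Gimap8 were 55.8% to 65.6% identical. Pairs with Gimap8, whose coding sequence is longer, were 67.3% to 73.3% identical. Identity was counted over aligned bases with gaps left out. Gaps let a shorter sequence spread over the longer one of Gimap8. The values of its pairs therefore cannot be compared with those of the other pairs and do not show a closer relation. The longest common run of Gimap3 and Gimap5 is 140 bases of coding sequence, against at most 17 bases for any other pair of the 8 members. It is printed from the GENCODE transcripts, as letters that a read inside it could not assign.
Gimap3 and Gimap5: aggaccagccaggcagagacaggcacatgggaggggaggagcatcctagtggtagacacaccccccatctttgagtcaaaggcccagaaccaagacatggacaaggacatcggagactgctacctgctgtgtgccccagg
Of all 36-letter windows of the Gimap5 transcript, 20.2% also occurred in a transcript of another gene on either strand, 15.1% in Gimap3. For Gimap3 it was 15.4%, with 13.7% in Gimap5. The levels of Gimap3 and Gimap5 are therefore uncertain, since the sources used here do not say how such reads were treated.

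For Gimap1, 17.2% of the windows occurred elsewhere, with 9.19% in Gimap1os, its antisense neighbour, and 11.2% in the annotated gene Gm28053. The TruSeq RNA kit named in the labels is not a stranded one, so reads of Gimap1 and Gimap1os cannot be told apart where they overlap. No window of Gimap4, Gimap6 or Gimap9 occurred in another gene. Gimap7 had 3.73% and Gimap8 0.354%. The Gimap8 model has its whole span, 48596468 to 48611181, in common with a model named linc-Gimap8-AS. That model stood at 9.78 FPKM in knockout cells and 6.26 FPKM in wild type cells, and its test is marked as failed too.

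Of 15 tested binding partners and survival proteins, 1 rose and 6 fell in the authors' deposited table, with a median log2 ratio of -0.36. Over all tested models the shares were 1.79% higher and 15.3% lower, which is also the background of the gene lists that follow. Mcl1, a survival protein reported in a complex with Gimap5 in rats, rose to 168 FPKM in the knockout, against 110 FPKM in wild type (log2 0.62, implied SE 0.21, q = 0.0254 in the authors' deposited table). Bcl2l1, which encodes the Bcl-xL protein that Gimap3 and Gimap5 bind, fell to 62.7 FPKM in the knockout, against 118 FPKM in wild type (log2 -0.91, implied SE 0.24, q = 0.00247 in the authors' deposited table). Bax, the death effector that Gimap4 binds, fell to 11.2 FPKM in the knockout, against 30.4 FPKM in wild type (log2 -1.45, implied SE 0.36, q = 0.00103 in the authors' deposited table). Bad, another promoter of death, had the lowest ratio of the list at log2 -2.04 (q = 7.56e-05 in the authors' deposited table). Map1lc3a, an autophagosome protein of the same family as Gabarapl2, fell to 3.29 FPKM in the knockout, against 8.68 FPKM in wild type (log2 -1.40, q = 0.00186 in the authors' deposited table). Bcl2 stood at 3.13 FPKM in knockout cells and 2.13 FPKM in wild type cells (q = 0.176). Gsk3b, the kinase that Gimap5 restrains, stood at 28.1 FPKM in knockout cells and 26.9 FPKM in wild type cells (q = 0.933). Gabarapl2 stood at 8.78 FPKM in knockout cells and 11.3 FPKM in wild type cells (q = 0.572). These q values are also from the authors' deposited table. With the GC and length trend removed, no gene of the list had a q under 0.05. On that scale Mcl1 was at 0.69 (q = 0.0568), Bcl2l1 at -0.12, Bax at 0.07, Bad at -0.47 and Map1lc3a at 0.44 (q = 0.837).

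Other GTPase families of lymphocytes gave differing counts. Of 11 tested guanylate-binding and immunity-related GTPase models, the interferon-induced families, Gbp6 rose to 16.3 FPKM in the knockout, against 9.67 FPKM in wild type (log2 0.76, implied SE 0.25, q = 0.0206 in the authors' deposited table). The other 10 did not pass, and the median log2 ratio was 0.50. These genes have close copies, and older names were matched to some of them. Of 9 tested septins, GTP-binding proteins of the cytoskeleton, 4 fell and none rose, with a median of -0.44. Sept1 fell to 160 FPKM in the knockout, against 376 FPKM in wild type (log2 -1.23, implied SE 0.23, q = 4.48e-06 in the authors' deposited table). Sept14 and Sept8 fell as well, at log2 -1.08 and -1.11. With the trend removed, Sept14 stayed past the threshold at -1.001 (q = 0.0249), while Sept1 was at -0.20 and Gbp6 at 0.67 (q = 0.175).

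Among 12 tested genes of the maturation that follows positive selection, when GIMAP levels are known to climb, 1 rose and 1 fell, with a median log2 ratio of 0.29. Cd5, which dampens T cell receptor signals, fell as deposited at log2 -0.67 and was at 0.17 with the trend removed. The maturation factor Klf2 stood at 0.948 FPKM in knockout cells and 0.924 FPKM in wild type cells, and its target S1pr1, the egress receptor, at 0.304 FPKM in knockout cells and 0.310 FPKM in wild type cells. The homing receptor Ccr7 stood at 3.20 FPKM in knockout cells and 3.04 FPKM in wild type cells, and Il7r, the interleukin-7 receptor, at 1.03 FPKM in knockout cells and 0.803 FPKM in wild type cells. None of these 4 passed the threshold.

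**Figure D5:**
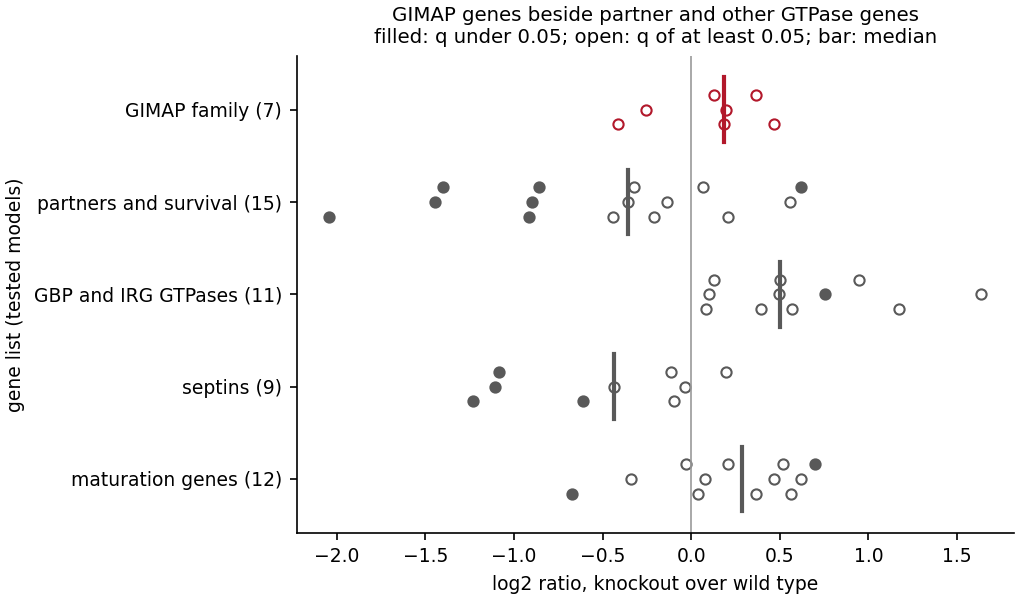
Log2 ratio of knockout over wild type for each tested model of the GIMAP family, its partners and survival genes, other GTPase families and maturation genes; each point is a model, filled points have a q under 0.05, and the bar is the median. The GIMAP points are all open with a median of 0.18, and septins and partners have medians of -0.44 and -0.36.

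The genes whose pair of levels lay nearest to that of Gimap6 were Dnajc15, a cochaperone of mitochondria, at 307 FPKM in knockout cells and 229 FPKM in wild type cells, Tcf12, an E protein, at 283 FPKM in knockout cells and 251 FPKM in wild type cells, and Ifngr1, a chain of the interferon gamma receptor, at 287 FPKM in knockout cells and 220 FPKM in wild type cells. Likeness was the Euclidean distance over the log2 levels of the 2 genotypes, which was 0.0790 for Dnajc15, 0.146 for Tcf12 and 0.175 for Ifngr1.

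The libraries carried the markers of the labelled stage. The 10 double-positive markers summed to 6595 FPKM in knockout cells and 7445 FPKM in wild type cells, of which Cd3d fell and the other 9 did not pass. With the GC and length trend removed, Cd3d was at -0.33 (q = 0.755). In bulk RNA, fewer cells of a type and less RNA per cell cannot be told apart. Of the double-negative markers, 8 in number, 1 rose, 1 fell and 5 others did not pass, with sums of 50.4 FPKM in knockout cells and 41.9 FPKM in wild type cells. Il2ra, a chain of the interleukin-2 receptor, rose to 29.4 FPKM in the knockout, against 2.89 FPKM in wild type, a 10.2-fold higher level, and stayed past the threshold with the trend removed, at log2 3.18. Ptcra, the pre-T cell receptor chain, fell to 9.59 FPKM in the knockout, against 26.1 FPKM in wild type, and was at -0.44 with the trend removed (q = 0.718). The 6 B cell markers summed to 15.98 FPKM in knockout cells and 20.5 FPKM in wild type cells, nearly all from Cd79b, which stood at 15.7 FPKM in knockout cells and 20.1 FPKM in wild type cells, above the levels of Gimap3, Gimap4, Gimap5 and Gimap7. Natural killer markers summed to 56.4 FPKM in knockout cells and 33.8 FPKM in wild type cells, nearly all from Gzma, which stood at 55.2 FPKM in knockout cells and 31.3 FPKM in wild type cells, with Ncr1 listed at 0.0341 FPKM in knockout cells and at 0 in wild type cells. Endothelial markers summed to 0.182 FPKM in knockout cells and 0.808 FPKM in wild type cells, and Emcn was listed at 0 in both. Myeloid and dendritic markers summed to 3.90 FPKM in knockout cells and 7.05 FPKM in wild type cells, erythroid markers to 0.780 FPKM in knockout cells and 2.16 FPKM in wild type cells, and thymic epithelial markers to 0.959 FPKM in knockout cells and 2.37 FPKM in wild type cells. Gzma, a granzyme, rose (q = 0.0170 in the authors' deposited table) and stayed past the threshold with the trend removed, at 1.03 (q = 0.0108). The markers Itgam, Hba-a2, Epcam and Egfl7, 1 each of the myeloid, erythroid, epithelial and endothelial lists, fell as deposited. With the trend removed Itgam was at -0.83 (q = 0.379) and Epcam at -0.82 (q = 0.399), and Hba-a2 and Egfl7 were not in that regression. Apart from Cd79b and Gzma, no marker of these 6 other cell types exceeded 2.57 FPKM, and their part in the GIMAP levels was not tested.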

How the data were processed

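RNA of 6 libraries, 3 per genotype, was sequenced, and the authors deposited 1 pooled FPKM value per genotype, with their log2 ratio of wild type over knockout (here turned round), a test statistic (a score read as a normal deviate), a p-value and a q-value, per the file headers. The submitters' processing notes name TopHat2 and mm9. The sources used here do not give the counting tool, annotation or depth.

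No test was run on libraries, as the table pools them. The q is Benjamini-Hochberg adjusted over 13834 tested models (largest difference 1.89e-06), and the implied SE is the ratio divided by the statistic. The median ratio was subtracted for the centred values. GC content and length came from 1 GENCODE M21 transcript per gene. A robust spline regression (statsmodels 0.14.6, with 5 spline terms each for GC content and for length) covered 8990 genes. These had a mean of at least 1 FPKM and a transcript at most 1.2 times the model's span. The regression was also run on simulated ratios drawn with the implied SE, which cannot show whether that SE is right. The residuals of the deposited ratios were divided by the implied SE and adjusted by Benjamini-Hochberg. RefSeq synonyms were used for symbols the table does not name. Members and lists were chosen with earlier results of these data known. Named genes are all members, flanking models, set partner and maturation genes, and up to 3 called genes per direction of each list by smallest p. Some genes of these lists and 1 whole list are not reported here. Other named genes were chosen after their values were seen. Alternatives were pseudocounts of 0.1 and 1, q thresholds of 0.1 and 0.01, a 1 FPKM minimum, centring, the GC trend and the choice of model.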

Additional observations from a re-analysis of the deposited data

How the results depend on the processing

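No GIMAP gene had a q under 0.05 as deposited, with q adjusted over models of at least 1 FPKM, with centred ratios or with the GC and length trend removed, and none had a deposited q under 0.1 or 0.01. The median log2 ratio of the tested members was 0.18 as deposited, 0.35 centred, 0.18 and 0.16 with pseudocounts of 0.1 and 1, and 0.44 with the trend removed. Only the trend removal turned signs, for Gimap1 (to 0.75) and Gimap5 (to 0.0107), both without passing the threshold, and it corrects for GC content and length by construction. Keeping a tested model first changed nothing, since each name has 1 model. No paired analysis was possible because the table holds 1 pooled value per genotype, and leaving out a replicate was not run for the same reason. The implied SE of the members, 0.23 to 0.39, limits what could be seen, and depth is unknown.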
